A study of Mus musculus with 8 samples.

Results

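The genes of heme synthesis were followed in HSCs and LSK cells kept for 1 day with or without RBCs. The set held 9 genes, chosen by name: Alas1, Alas2, Alad, Uros, Urod, Cpox, Ppox and Fech, which are 8 enzymes of the pathway, and Flvcr1, a heme exporter. All 9 were found among the 24346 gene symbols of the data, 8 by these names and Flvcr1 under its older symbol Mfsd7b.

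RNA sequencing covered 8 libraries, 2 in each of 4 groups. All cells came from wild-type C57BL/6 mouse bone marrow, and mice in the study were 8 to 20 weeks old. LSK cells were sorted as c-Kit+ and Sca-1+ cells without lineage markers, a gate that contains HSCs and multipotent progenitors, and HSCs as the CD150+ and CD48- cells of that gate. All groups were kept in serum-free medium with cytokines, and the 2 coculture groups also received irradiated, leukocyte-filtered RBCs of C57BL/6J mice. Groups without RBCs are called controls. After culture, RBCs were lysed and CD45+ cells were sorted before RNA was taken. The labels do not say whether the 2 libraries of a group came from separate cultures or animals, so p-values measure the spread between these libraries, which may be technical. The gates were visible in the RNA. Cd48 ranged from 16 to 42.7 FPKM over the 4 HSC libraries and from 124 to 184 over the 4 LSK libraries, while Slamf1, which encodes CD150, ranged from 5.50 to 10.7 in the former and from 3.09 to 4.63 in the latter.

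Heme is an iron-holding ring that hemoglobin, cytochromes, catalase and other proteins carry. Its synthesis starts in mitochondria, where aminolevulinic acid synthase joins glycine to succinyl-CoA, continues in the cytosol through the enzymes from Alad to Urod, and ends in mitochondria with Cpox, Ppox and Fech, the last of which inserts the iron. The first step limits the rate in most cells and has a form for each setting: Alas1 is the housekeeping form, which heme represses, and Alas2 is the erythroid form, whose transcription is driven by GATA1 and whose translation is held back by iron regulatory proteins when iron is scarce.

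The control sequences of Alas1 and Alas2 are shown because these were the members whose levels differed with RBCs in HSCs. Alas2 lies on the plus strand of chromosome X at 150547375 to 150570638 (GRCm38). The 208 bases up to its first annotated transcript base, chrX:150547167-150547374 on the plus strand, hold 1 GATA match, in capitals. Alas1 lies on the minus strand of chromosome 9 at 106233455 to 106248654. Its window holds 1 match to the core letters bound by NRF1, a factor that drives many genes of mitochondrial proteins, at chr9:106247906-106247935 on the minus strand. That match ends 60 bases before the first base of the transcript Alas1-201 and lies within the longer first exon of another Alas1 transcript. The last sequence is the iron responsive element of Alas2, read from the 5′ untranslated region of GENCODE M21 transcripts of the gene, with the loop letters of the element in capitals.
Alas2 promoter: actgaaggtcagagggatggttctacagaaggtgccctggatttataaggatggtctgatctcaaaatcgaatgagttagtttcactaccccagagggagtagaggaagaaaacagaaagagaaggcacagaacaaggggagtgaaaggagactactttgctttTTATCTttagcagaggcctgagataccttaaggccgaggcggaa
Alas1 NRF1 match: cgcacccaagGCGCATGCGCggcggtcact
Alas2 iron responsive element: tggttcgtcctCAGTGCagggcaacag

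RefSeq promoter windows (GRCm38.p6), from 250 bases before to 50 after a start, were given for 8 of the 9 members. The GATA letters searched were AGATAA and the same word with T as its first letter, G as its last, or both, on both strands, where matches can overlap, and 29.8% of all 32851 windows held at least 1 of them. They were found for 3 members, namely Alas2, Cpox and the second of the windows of Uros. Cpox, the only member with 3 matches, is shown for comparison with Alas2. Its first and second matches overlap within chr16:58670105-58670134 and the remaining 1 lies within chr16:58670200-58670229, both on the plus strand and both ahead of the GENCODE start of the gene at 58670292.
Cpox GATA matches, overlapping pair: tgactaaagcgcCTATCTTATCAgtccaag
Cpox GATA match, single: cagggtgcagtcTTATCTgctctttccggg

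The NRF1 core letters, the capitals of the Alas1 sequence, read the same on both strands and were found for Alas1 alone among the members, against 0.971% of all windows. The element pattern was found in the 5′ untranslated regions of 23 of 20899 genes (0.110%), and Alas2 was the only member among them. These are matches of letters, not bound sites.

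Levels are given in FPKM, in which fragments are scaled by the length of the transcript and the size of the library, so genes can be compared with each other. The 8 libraries had FPKM totals from 680942 to 752107, and the depth of the libraries relative to each other, read from the steps of low values, lay between 0.886 and 1.13. The absolute depth is unknown. Tests used limma on log2(FPKM + 1) over the 12003 genes with at least 1 FPKM in at least 2 libraries, and a gene passed with a Benjamini-Hochberg adjusted p under 0.05 over all of these genes. Log2 fold changes are on this scale, which understates changes of low genes, and ± marks their SE, with n = 2 libraries per group. All 9 members entered the test, but Alas2 did so only through libraries with RBCs.

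**Figure D1:**
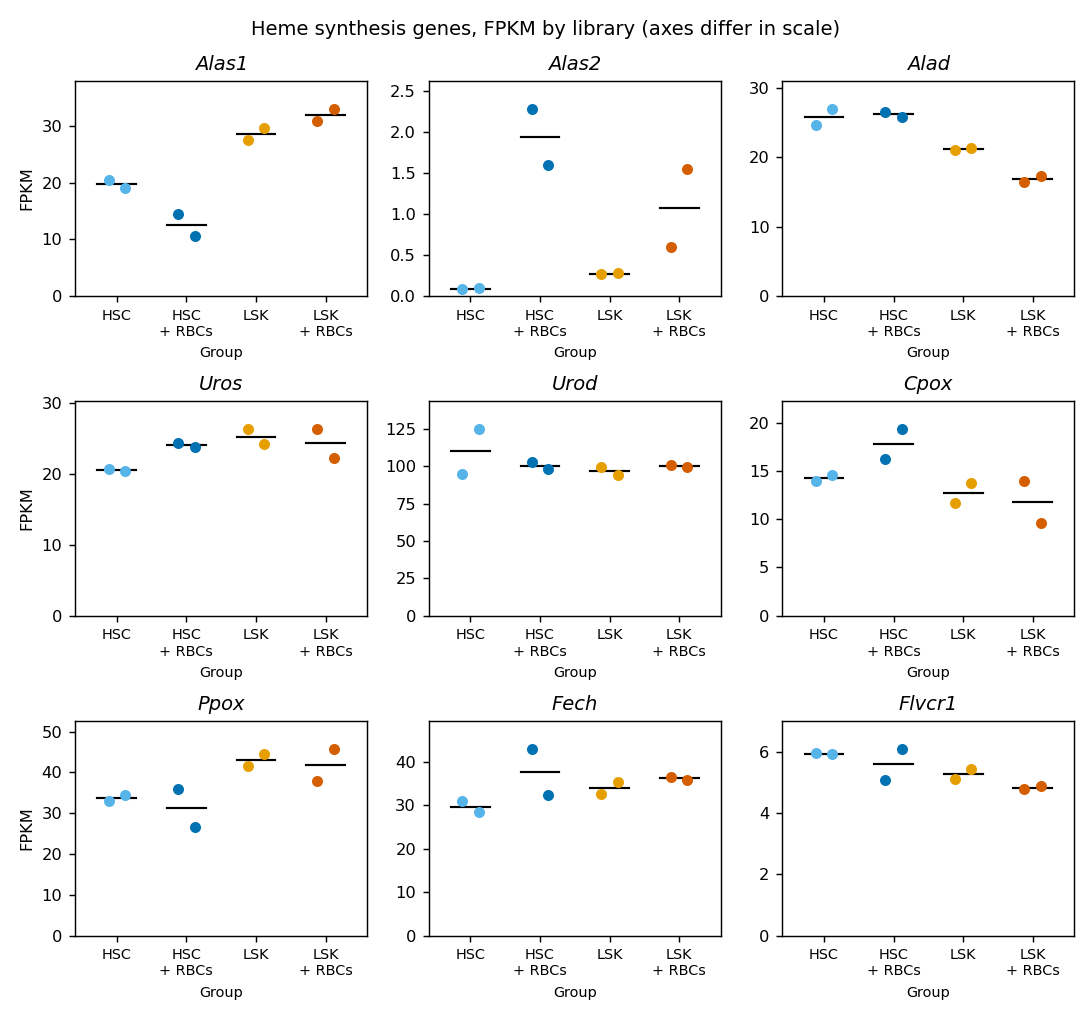
FPKM of each of the 9 heme synthesis genes in the 4 groups (x axis). Each point is 1 library, each bar the mean of 2 libraries, and the y axes start at 0 but differ in scale. Alas1 points fall with RBCs in HSCs and lie highest in LSK cells, and Alas2 is above 0.5 FPKM only in libraries with RBCs.

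Urod, which converts uroporphyrinogen to coproporphyrinogen, was the most abundant member in every group, with a mean between 96.7 and 110 FPKM, and Alas2 was the least abundant, with a mean between 0.0871 and 1.94 FPKM. In LSK cells, with and without RBCs, the order from high to low was Urod, Ppox, Fech, Alas1, Uros, Alad, Cpox, Flvcr1 and Alas2, and the libraries of neighbours in that order did not overlap within a group. In HSCs without RBCs, the order was Urod, Ppox, Fech, Alad, Uros, Alas1, Cpox, Flvcr1 and Alas2, with overlapping libraries for Uros and Alas1. In HSCs with RBCs, Fech and Ppox overlapped behind Urod, and Alas1 stood at rank 7, below Cpox. Between these orders Alas1 went from rank 4 in LSK cells to 6 or 7 in HSCs, and Alad from rank 6 to 4. The FPKM of the 8 enzymes summed to between 238 and 269 in the 8 libraries. That sum did not separate the groups, with 239 and 269 in control HSCs, against 266 and 238 in cocultured HSCs.

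The first question was which members changed in HSCs cocultured with RBCs. In HSCs, 2 of the 9 members passed the test, against 2.53% of all genes tested: Alas1 fell and Alas2 rose, while the 6 enzymes that follow them and Flvcr1 did not pass. Over the 9 members, 5 fold changes were above 0 and 4 below, and their median was 0.02 on the log2 scale, against -0.01 over all genes tested. With a 2-fold threshold added, Alas2 alone passed, 1 of 9 against 0.775% of all genes. Alas2 met the filter only through libraries with RBCs, so its entry to the test depended on the rise being tested. The counts that include Alas2 are therefore descriptions. Neither gene passed when every gene above 0 in any library was tested (adjusted p = 0.15 for Alas1 and 0.068 for Alas2, limma), and Alas1 also missed the threshold with equal library totals, with only the HSC groups fitted and without the variance trend (adjusted p between 0.071 and 0.14, limma).

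Alas1 measured 20.5 and 19.1 FPKM in control HSCs, against 14.5 and 10.6 after coculture with RBCs. Both libraries with RBCs were below both without, and the mean went from 19.8 to 12.6 FPKM. The log2 fold change was -0.63 ± 0.13, with an adjusted p of 0.042 (limma). The call is close to the threshold: it was lost without any single library other than HSCs with RBCs replicate 1, with an adjusted p between 0.064 and 0.19, and Alas1 remained lower in each of these fits. An antisense gene, 4930500F10Rik, shares exon bases with Alas1, and the kit used does not keep strand.

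Alas2 measured 0.0785 and 0.0958 FPKM in control HSCs, against 2.28 and 1.60 after coculture. Both libraries with RBCs were far above both without, although even the higher value is low beside Alas1. The log2 fold change was 1.43 ± 0.24, with an adjusted p of 0.017 (limma). On the untransformed scale the ratio of depth-corrected values was 22.3, and if the smallest step shared by the values is 1 read, with 4 steps without RBCs and 93 with RBCs, the exact 95% interval of counting error is 8.43 to 83.7. One of the 8 library values was not a whole number of steps within 1%, and the interval compares these libraries rather than the conditions. The call was lost without any one of the 4 HSC libraries, with an adjusted p between 0.054 and 0.14 and a log2 fold change between 1.26 and 1.59.

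Because Alas1 was lower and Alas2 higher, the share of Alas2 in the summed FPKM of both genes went from 0.381% and 0.5% in control HSCs to 13.6% and 13.1% in HSCs with RBCs. Alas1 thus remained the larger part of the synthase RNA in every library. The FPKM of both genes added up to 20.6 and 19.2 in the controls, against 16.8 and 12.2 in the cocultures.

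**Figure D2:**
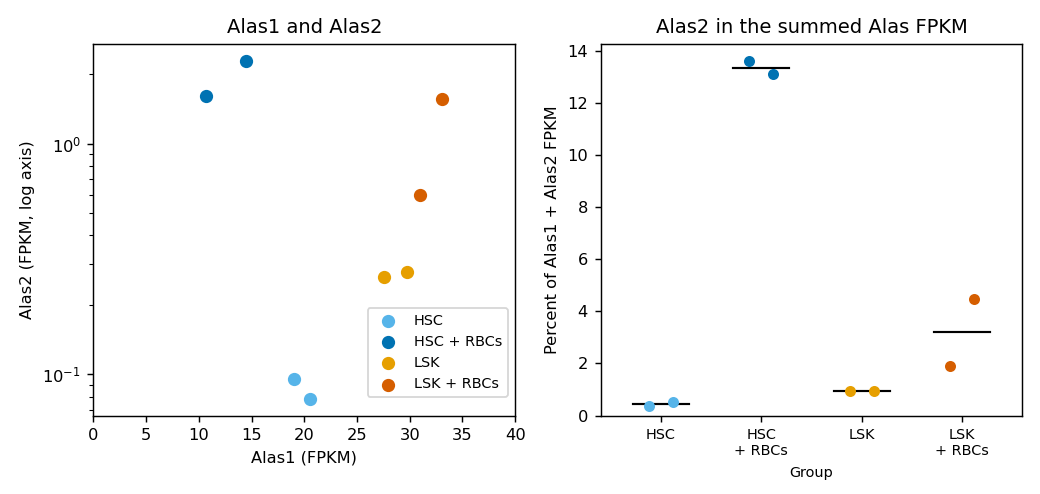
Left, Alas2 against Alas1 in FPKM, with a log axis for Alas2 and 1 point per library. Right, Alas2 as a percent of the summed FPKM of Alas1 and Alas2, with points for libraries and bars for the mean of 2. HSCs with RBCs stand apart at 13.1% and 13.6%, and the next highest library is an LSK library with RBCs at 4.49%.

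Reticulocytes contain Alas2 RNA, so the genes of other cells in the culture are given beside it. In the red cell list, 8 of 10 genes were found in the data. Of these, 2 of the 6 tested passed as higher in HSCs with RBCs, against 2.53% of all genes. In LSK cells 1 of the 6 passed as higher, against 3.45%. Hba-a1, an alpha globin chain, measured 0.0826 and 1.40 FPKM in control HSCs, against 116 and 88.7 in cocultured HSCs. LSK cells had 0.864 and 1.53 as controls, against 32.9 and 43.1 in coculture. Slc4a1, the anion exchanger of the red cell membrane, was listed at 0 in 7 of the 8 libraries and at 0.0186 FPKM in the other. The red cell list summed to 283 to 339 FPKM in control HSCs and to 298 to 306 in cocultured HSCs. Within that sum Hbb-b2, a beta globin copy, measured 279 and 335 FPKM in control HSCs against 120 and 158 in coculture, and Hbb-b1 measured 1.93 and 1.94 against 65.1 and 31. In LSK cells the red cell list summed to 112 to 178 FPKM in controls and to 120 to 184 in coculture. There Hbb-b2 measured 109 and 173 FPKM in controls, against 128 and 54.1 in coculture. Hbb-b1 measured 0.907 and 2.12 against 0.0438 and 0.0145, and Hbb-bs measured 0.00522 and 0.172 against 18.9 and 19.4. Near-identical globin copies can exchange reads. Alas2 amounted to 1.96 and 1.81 FPKM per 100 FPKM of Hba-a1 in HSCs with RBCs and to 1.82 and 3.6 in LSK cells with RBCs. In the neutrophil list 3 of 11 genes passed as higher in HSCs cocultured with RBCs, and 3 in LSK cells, against 2.53% and 3.45% of all genes in either direction, and 1 of those in LSK cells, Mmp9, was above 1 FPKM only in LSK libraries with RBCs. Of the platelet list 2 of 7 genes were higher in HSCs (Gp1ba, adjusted p = 0.014, and Itgb3, adjusted p = 0.013, limma), against 2.53% of all genes. In LSK cells 1 was lower, against 3.45%. The platelet list summed to 198 to 238 FPKM in control HSCs and 205 to 225 in cocultured ones. Of the monocyte or macrophage list 1 of 5 genes tested was higher in HSCs (Csf1r, adjusted p = 0.012, limma), against 2.53% of all genes. In HSCs 4 of the 5 had fold changes above 0 and 1 below. Lyz2 of that list measured 312 and 321 FPKM in control HSCs, against 221 and 218 in coculture. The list summed to 402 to 433 FPKM in control HSCs and to 328 to 330 in cocultured ones. In LSK cells 2 passed as higher, against 3.45%, and all 5 had fold changes above 0. There Ccr2 measured 7.61 and 4.57 FPKM in controls, against 34.4 and 35 in coculture. Csf1r measured 14.1 and 22.8 FPKM in control LSK cells, against 47.2 and 54.3 in coculture. Adgre1, of the same list, was at most 0.566 FPKM in any library. The list summed to 274 to 364 FPKM in control LSK cells and to 494 to 605 in cocultured ones. The part of RNA from RBCs, neutrophils, platelets or monocytes in the Alas2 values was not tested, and in bulk libraries more cells of a type and more RNA per cell cannot be told apart.

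Alas2 also shares exon bases with Apex2, a DNA repair gene on the other strand, and reads of the pair cannot be told apart without strand. Apex2 measured 11.7 and 13.9 FPKM in control HSCs, against 9 and 14.5 in coculture, so its libraries overlapped where those of Alas2 did not.

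The enzymes of the middle steps moved little in HSCs. Alad, which joins aminolevulinic acid molecules into porphobilinogen, measured 24.7 and 27.0 FPKM in controls, against 26.6 and 25.9 in coculture, a log2 fold change of 0.02 ± 0.09 (adjusted p = 0.95, limma). Uros, which closes the ring, measured 20.7 and 20.4 FPKM in controls, against 24.3 and 23.9 in coculture. Its libraries did not overlap, but the log2 fold change of 0.22 ± 0.10 had an adjusted p of 0.39 (limma). Urod measured 95 and 125 FPKM in controls, against 103 and 98.2 in coculture, a difference smaller than the gap between the 2 control libraries.

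Among the mitochondrial enzymes, Cpox, which oxidizes coproporphyrinogen, measured 14.0 and 14.6 FPKM in controls, against 16.2 and 19.4 in coculture, and its log2 fold change of 0.29 ± 0.17 had an adjusted p of 0.53 (limma). Ppox, which forms protoporphyrin, measured 33.0 and 34.5 FPKM in controls, against 35.8 and 26.7 in coculture, with control values inside the range of the RBC libraries. Fech measured 31.0 and 28.5 FPKM in controls, against 43.1 and 32.3 in coculture. The Fech libraries did not overlap and its log2 fold change was 0.32 ± 0.12, with an unadjusted p of 0.031 and an adjusted p of 0.29 (limma). Without cocultured HSC replicate 1 it was 0.12, and without replicate 2 it was 0.52. Flvcr1 measured 5.98 and 5.93 FPKM in controls, against 5.10 and 6.12 in coculture, again an overlap. The libraries with RBCs lay wholly to one side of those without for Alas1, Alas2, Uros, Cpox and Fech, and 41.7% of all genes tested separated in this way.

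**Figure D3:**
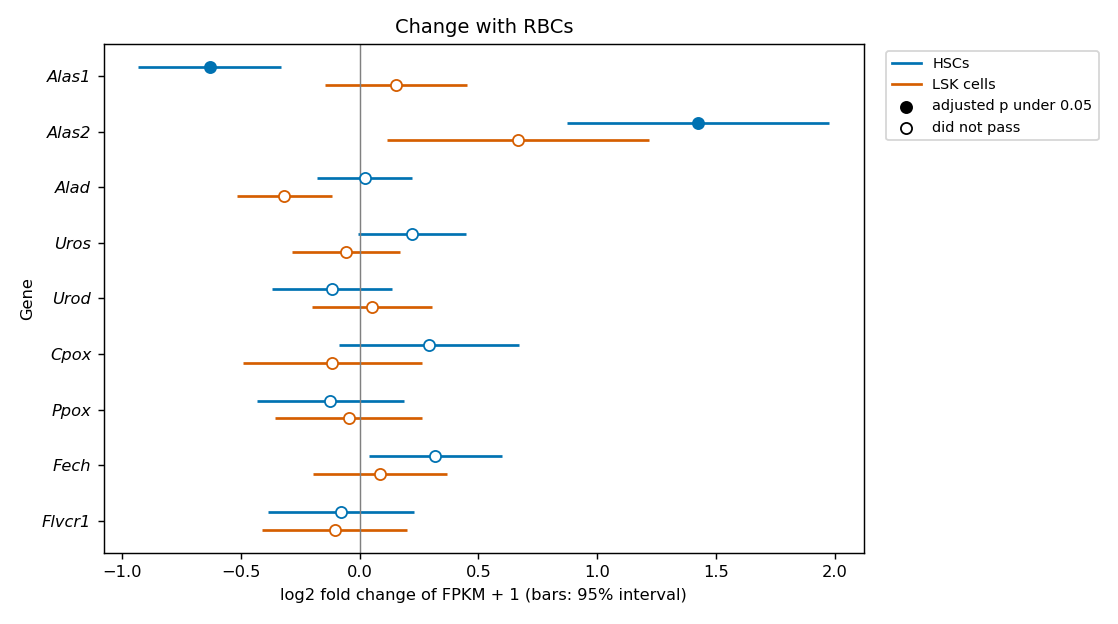
Log2 fold change of FPKM + 1 with RBCs (x axis) for the 9 genes (y axis), in HSCs (blue) and LSK cells (orange), with 95% intervals from limma. Filled points have an adjusted p under 0.05: Alas1 at -0.63 and Alas2 at 1.43, both in HSCs.

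In LSK cells cocultured with RBCs, 0 of the 9 members passed the limma test, against 3.45% of all genes tested, and 2 had an unadjusted p under 0.05, Alas2 and Alad, against 18.6% of all genes. With a 2-fold threshold added, 1.01% of all genes passed. The median of the members was -0.05 on the log2 scale, against -0.01 over all genes. Alas2 measured 0.265 and 0.278 FPKM in controls, against 0.598 and 1.55 in coculture. Both RBC libraries were above both controls but differed from each other by more than the lower of them differed from the controls. The log2 fold change was 0.67 ± 0.24 with an adjusted p of 0.19 (limma), and the ratio of depth-corrected values was 4.01, with a counting interval of 2.12 to 8.10 on 13 and 45 steps. The log2 fold change was 0.33 without LSK cells with RBCs replicate 2 and 1.01 without replicate 1. The share of Alas2 in the summed synthase FPKM was 0.954% and 0.925% in controls, against 1.90% and 4.49% in coculture.

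Alas1 measured 27.5 and 29.7 FPKM in control LSK cells, against 30.9 and 33.0 in coculture. Both RBC libraries were above both controls, the opposite order to that in HSCs, but the log2 fold change of 0.15 ± 0.13 did not pass (adjusted p = 0.59, limma). Alad measured 21.1 and 21.3 FPKM in controls, against 16.4 and 17.3 in coculture. These groups were well apart, with a log2 fold change of -0.32 ± 0.09, an unadjusted p of 0.0056 and an adjusted p of 0.094 (limma). The other 6 members had log2 fold changes between -0.11 and 0.09. Averaged over HSCs and LSK cells, Alas2 alone among the 9 passed (log2 fold change 1.05 ± 0.17, adjusted p = 0.0085, limma), against 5.37% of all genes tested, or 0.75% with a 2-fold threshold that Alas2 also met. Alas2 was higher in 4 of 4 libraries with RBCs, but here too it had entered the test only through such libraries. In LSK cells the libraries with RBCs lay wholly to one side of those without for Alas1, Alas2, Alad, Urod, Fech and Flvcr1, and 50.7% of all genes tested did so. Alas1 was the only member to separate in both cell types in opposite directions, as 7.8% of all genes did.

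The difference between the RBC effects in HSCs and in LSK cells was tested as an interaction, which 0 of the 9 members passed in limma, against 0.133% of all genes tested, or 0.108% with a 2-fold threshold. At an unadjusted p under 0.05 there were 2 members, against 12.5% of all genes. Alas1 had the lowest p, with a difference of -0.79 ± 0.19 on the log2 scale, an unadjusted p of 0.0022 and an adjusted p of 0.17. Alad had a difference of 0.34 ± 0.12, with an unadjusted p of 0.024 and an adjusted p of 0.32. For Alas2 the difference was 0.76 ± 0.35 with a 95% interval of -0.02 to 1.54, so the larger change in HSCs was not shown to differ from that in LSK cells.

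The second question was how the pathway differed between LSK cells and HSCs. Without RBCs, 1 of the 9 members passed, against 14.2% of all genes tested, and 0 with a 2-fold threshold, against 2.66%. The member that passed was Alas1, at 27.5 and 29.7 FPKM in LSK cells and 20.5 and 19.1 in HSCs, with a log2 difference of 0.51 ± 0.13 and an adjusted p of 0.034 (limma). The call was lost without any one of 6 libraries, both LSK libraries without RBCs, both with RBCs and both HSC libraries without RBCs, at an adjusted p between 0.054 and 0.16, with all genes above 0 tested (0.091) and without the variance trend (0.065). Log2 differences of 0.29 for Uros, 0.34 for Ppox and -0.27 for Alad did not pass, with adjusted p-values of 0.095, 0.14 and 0.073 (limma).

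With RBCs, 3 of the 9 members passed, against 24.4% of all genes tested, a share near the background. This comparison shares its HSC libraries with the RBC comparison in HSCs. Alas1 was higher in LSK cells, at 30.9 and 33.0 FPKM against 14.5 and 10.6 in HSCs, a log2 difference of 1.30 ± 0.13 with an adjusted p of 0.00026 (limma). With a 2-fold threshold it alone passed, 1 of 9 against 3.61% of all genes. Alad was lower, at 16.4 and 17.3 FPKM in LSK cells against 26.6 and 25.9 in HSCs, with a log2 difference of -0.61 ± 0.09 and an adjusted p of 0.0015 (limma). Cpox was lower as well, at 14.0 and 9.64 FPKM in LSK cells against 16.2 and 19.4 in HSCs, with a log2 difference of -0.57 ± 0.17 and an adjusted p of 0.037 (limma). The Cpox call rested on LSK cells with RBCs replicate 2 and on both HSC libraries with RBCs, since without any one of these its adjusted p was between 0.064 and 0.23, and without the first the log2 difference was -0.32. It was also lost with all genes above 0 tested, with equal totals, with only these 2 groups fitted and without the trend, at an adjusted p between 0.055 and 0.097. With RBCs, LSK cells thus had more RNA for the housekeeping synthase and less for the enzyme of the next step than HSCs. Ppox did not pass (log2 difference 0.42 ± 0.14, adjusted p = 0.054, limma). It did pass with equal library totals (adjusted p = 0.039) and with the robust option of limma (adjusted p = 0.036).

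Averaged over both conditions, 4 of the 9 members passed, against 32.9% of all genes tested, a share near the background, and 0 with a 2-fold threshold, against 2.72%. Alas1 (log2 difference 0.90, adjusted p = 0.00015) and Ppox (0.38, adjusted p = 0.016) were higher in LSK cells, and Alad (-0.44, adjusted p = 0.00079) and Cpox (-0.36, adjusted p = 0.042) were lower, all by limma. The Ppox call was lost with all genes above 0 tested (adjusted p = 0.055) and without replicate 2 of LSK controls (0.053) or of LSK cells with RBCs (0.064). The Cpox call was lost with all genes above 0 tested, with equal totals and without the trend (adjusted p between 0.066 and 0.10), and without any single library other than replicate 1 of LSK cells with RBCs or of HSCs with RBCs (0.053 to 0.13). Urod, Uros, Fech, Flvcr1 and Alas2 did not pass. Ppox shares exon bases with B4galt3, a galactosyltransferase gene on the other strand, which measured 26.4 to 32.6 FPKM over the 8 libraries. The neutrophil list moved with the same comparison. Its 11 genes summed to 188 to 285 FPKM in control LSK cells and 447 to 654 in cocultured ones. In HSCs they summed to 32.4 to 39.3 FPKM in controls and 88.5 to 299 in coculture. The monocyte or macrophage list moved too, with 3 of 5 genes tested higher in LSK cells and 1 lower, against 32.9% of all genes in either direction. The part of both lists in the members' differences was not tested.

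**Figure D4:**
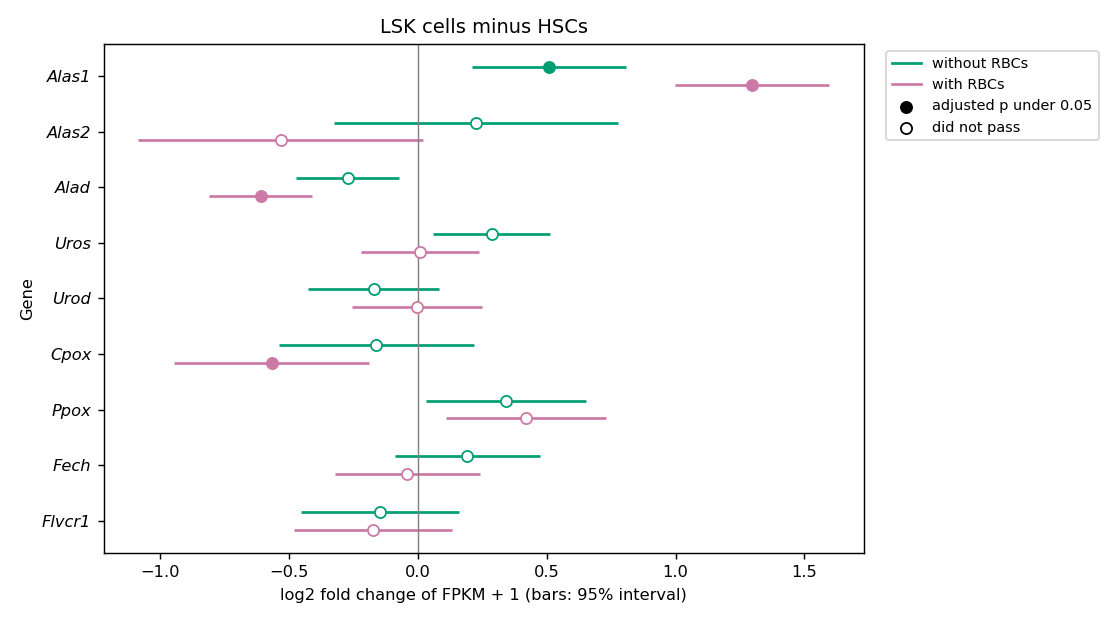
Log2 difference of FPKM + 1 between LSK cells and HSCs (x axis) for the 9 genes (y axis), without RBCs (green) and with RBCs (pink), with 95% intervals from limma. Filled points have an adjusted p under 0.05, and the Alas1 difference is 0.51 without and 1.30 with RBCs.

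Genes around the pathway were read from lists named for their roles. The median RBC effect, averaged over both cell types, was 0.01 on the log2 scale for carriers and transporters, -0.06 for partners and regulators, -0.09 for heme breakdown and movement and 0.03 for erythroid transcription factors, against -0.01 over all genes tested. Of 13 genes in the list of carriers and transporters, 12 were tested. With RBCs 0 passed in limma in HSCs, in LSK cells or on average, against 2.53%, 3.45% and 5.37% of all genes tested. Abcb6, a porphyrin transporter, had the largest change in both cell types, at 0.51 in HSCs (adjusted p = 0.28) and -0.53 in LSK cells (adjusted p = 0.19) on the log2 scale. The 17 partners and regulators include the Clpx unfoldase that activates aminolevulinic acid synthase and the enzymes that supply iron-sulfur clusters and succinyl-CoA. Of these 16 were tested, and 0 passed with RBCs in limma, against the same shares of all genes. There the largest log2 change in HSCs was that of Pgrmc1, a heme-binding partner of ferrochelatase (-0.22, adjusted p = 0.15, limma).

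Genes of heme movement and breakdown moved in 1 direction where they passed. Of 11 genes 9 were tested, and 2 fell with RBCs in HSCs, 2 in LSK cells and 3 on average, against 2.53%, 3.45% and 5.37% of all genes tested, with none higher. Slc48a1, which moves heme out of lysosomes into the cytosol, measured 167 and 154 FPKM in control HSCs, against 112 and 115 in coculture. It measured 196 and 194 FPKM in control LSK cells, against 109 and 106 in coculture. The groups did not overlap in either cell type, and the log2 fold changes were -0.50 ± 0.07 (adjusted p = 0.0049) and -0.85 ± 0.07 (adjusted p = 0.00038, limma). Slc48a1 remained past the test in every alternative in LSK cells, and in HSCs its adjusted p was 0.057 without HSCs with RBCs replicate 1.

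Hmox1, the inducible heme oxygenase that opens the heme ring, measured 28.6 and 30.3 FPKM in control LSK cells, against 13.6 and 16.8 in coculture, a log2 fold change of -0.92 ± 0.17 (adjusted p = 0.022, limma). In HSCs it measured 15.5 and 10.5 FPKM in controls, against 7.92 and 7.84 in coculture, a log2 fold change of -0.63 ± 0.17 that did not pass (adjusted p = 0.11, limma). The LSK call was lost without any one of the 4 LSK libraries, at an adjusted p between 0.067 and 0.14, with all genes above 0 tested (0.093) and without the variance trend (0.062). Blvrb, a biliverdin and flavin reductase, measured 67.5 and 69.7 FPKM in control HSCs, against 47.5 and 47.9 in coculture (log2 fold change -0.51 ± 0.10, adjusted p = 0.025, limma). That call was lost without any one of the 4 HSC libraries, at an adjusted p between 0.074 and 0.15, with all genes above 0 tested (0.096) and without the trend (0.091). In LSK cells, Blvrb measured 71.0 and 70.0 FPKM in controls, against 47.6 and 58.7 in coculture, with an adjusted p of 0.052 (limma). The interaction did not pass for Slc48a1, Hmox1 or Blvrb, with adjusted p-values of 0.19, 0.68 and 0.80 (limma).

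**Figure D5:**
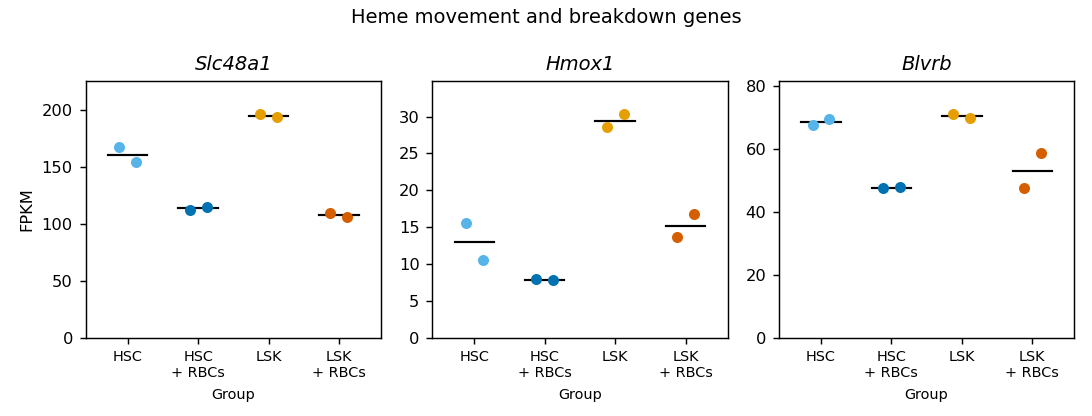
FPKM of Slc48a1, Hmox1 and Blvrb in the 4 groups (x axis), with 1 point per library and a bar at the mean of 2. The y axes start at 0 and differ in scale. All libraries with RBCs lie below those without RBCs of the same cell type, for example 112 and 115 against 167 and 154 FPKM for Slc48a1 in HSCs.

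Of 8 erythroid transcription factors, which include activators of Alas2, 1 fell with RBCs in HSCs and in LSK cells. This was Lmo2, a bridging subunit of GATA factor complexes, which measured 451 and 471 FPKM in control HSCs, against 271 and 284 in coculture (log2 fold change -0.73 ± 0.06, adjusted p = 0.00038, limma). In LSK cells, it measured 428 and 428 FPKM in controls, against 330 and 336 in coculture (log2 fold change -0.36 ± 0.06, adjusted p = 0.013, limma), a call lost without any one of the 4 LSK libraries (adjusted p between 0.082 and 0.11) and without the trend (0.082). Gata1 measured 12.9 and 15 FPKM in control HSCs, against 17.7 and 27.5 in coculture, and 16.8 and 14.5 in control LSK cells, against 22.9 and 24.5 in cocultured LSK cells. It did not pass in either cell type (adjusted p = 0.13 in both), but rose on average by 0.60 ± 0.13 on the log2 scale (adjusted p = 0.028, limma), and this was lost without any one of 6 libraries, both without RBCs of each cell type and both LSK libraries with RBCs (adjusted p between 0.052 and 0.10), with all genes above 0 tested (0.11) and without the trend (0.071).

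The genes most like Alas1 over the 8 libraries, by the root mean square difference of centred log2(FPKM + 1), were Tns1 (0.13), Neil1 (0.14) and Tec (0.17). Each was higher in LSK cells than in HSCs and lower in HSCs with RBCs than without, as Alas1 was: Tec measured 19.8 and 21.1 FPKM in control HSCs, against 17.8 and 15.3 in coculture, and 30.6 to 35.2 in LSK cells. The genes most like Alas2 were Skil (0.20), Gp1ba (0.21), which is in the platelet list, and Ggt5 (0.22). Skil measured 6.24 and 6.90 FPKM in control HSCs, against 20.2 and 17.6 in coculture, and 7.95 and 7.64 in control LSK cells, against 13.7 and 12.8 in cocultured LSK cells. These are descriptions of likeness, chosen from all genes tested.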

How the data were processed

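RNA was sequenced from 8 libraries of mouse HSCs and LSK cells, 2 per group, and groups were taken from the labels. The authors deposited 1 FPKM value per gene symbol and library. Per the labels, cDNA was made with a SMART-Seq kit and libraries with Nextera, which keep no strand. The submitters' processing notes name TopHat2 2.1.1, Bowtie2 2.2.8, SAMtools 0.1.18, Cuffdiff 2.2.1 and mm10, and the annotation is not given in the sources used here. Replicates were not pooled.

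From the deposited values log2(FPKM + 1) was computed for the 12003 genes that reached 1 FPKM in 2 libraries or more. The 4 group means were fitted by limma 3.58.1 (R 4.3.3) with a mean-variance trend and no replicate block, with 4 residual and 5.18 prior degrees of freedom, and p-values were adjusted by Benjamini-Hochberg over all genes tested. Contrasts were the RBC effect in each cell type and on average, their difference, and LSK cells minus HSCs without RBCs, with RBCs and on average. For a single gene, 0.333 is the smallest two-sided p of an exact permutation of 2 against 2 libraries, so the calls use a spread that limma borrows from all genes. The procedure was tested on simulated data.

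Relative depth came from genes with a mean FPKM under 1: 2965 of 5365 (55.3%) had whole multiples of a step in all libraries within 1%. Intervals on steps are exact (Clopper-Pearson) and cover counting error only. Positions and transcripts came from GENCODE M21 (GRCm38) and promoter windows from RefSeq. The members and the gene lists were chosen with earlier results of these data known. All 9 members are named. Of the other lists, genes are named that passed with RBCs, Hmox1 and the gene with the largest change where none passed, and the 3 genes most like Alas1 and like Alas2. Some genes that this rule names are not reported here.

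Replicate numbers did not pair the libraries: the correlation of deviations of same-numbered libraries lay between -0.067 and 0.095 over the 6 pairs of groups. The closing section gives the effect of other pseudocounts, filters and scalings, of fitting only the groups compared, of the block, the trend and a 2-fold threshold, and of leaving out each library.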

Additional observations from a re-analysis of the deposited data

Results flagged for a closer look

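Alas1 drew attention because all libraries moved opposite ways in the 2 cell types: both HSC libraries with RBCs were below both without (14.5 and 10.6 against 20.5 and 19.1 FPKM), and both LSK libraries with RBCs were above both without (30.9 and 33.0 against 27.5 and 29.7 FPKM). Of all genes tested, 7.8% separated in opposite directions in this way. The difference of the log2 fold changes was -0.79, and its own test did not pass (adjusted p = 0.17, limma).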

How the results depend on the processing

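In HSCs with RBCs, the count of members past the test, 2, became 1 with an added 2-fold threshold (Alas2), and 1 with equal library totals, with only the 2 groups compared and without the mean-variance trend, since Alas1 was then at an adjusted p of 0.071, 0.14 and 0.10. It became 0 with all genes above 0 tested, and ranged from 0 to 1 when 1 library was left out, which leaves a group with a single library that is assumed to vary like the others. The count for LSK cells minus HSCs without RBCs, 1, became 0 with the 2-fold threshold, with all genes above 0 tested and without the trend, and ranged from 0 to 1 when 1 library was left out. With RBCs it went from 3 to 1 with the 2-fold threshold, and Ppox, not among the 3, passed with equal library totals and with the robust option of limma. Averaged over both conditions it went from 4 to 0 with the 2-fold threshold and to 2 with all genes above 0 tested, and ranged from 2 to 4 when 1 library was left out. The cause of these changes was not tested.

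Replicate numbers were shared but not paired (processing above), and a fit with the replicate block moved the count in HSCs from 2 to 1 (Alas1, adjusted p = 0.064). The block also ended the Cpox calls for LSK cells minus HSCs, with RBCs (adjusted p = 0.055) and on average (0.061), and no other call among the members.

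Log2 values that changed sign were those of members that had not passed. The average RBC effect of Urod was 0.0019 with equal library totals. For LSK cells minus HSCs with RBCs, Urod was 0.0447 and Fech 0.0066 with equal totals, and Urod was 0.0546 and Uros -0.0435 after quantile normalization, while Alas2 on average over both conditions was 0.0422 with a pseudocount of 0.1. When 1 library was left out, RBC effects in HSCs ran from -0.0401 to 0.081 for Alad, from -0.3148 to 0.0803 for Urod, from -0.33 to 0.0836 for Ppox and from -0.1897 to 0.0331 for Flvcr1. Those in LSK cells ran from -0.1738 to 0.059 for Uros, from -0.3626 to 0.1335 for Cpox and from -0.181 to 0.0878 for Ppox. Average RBC effects ran from -0.1317 to 0.0658 for Urod, from -0.0359 to 0.2122 for Cpox and from -0.1883 to 0.0185 for Ppox, and differences between the cell types' RBC effects from -0.3661 to 0.0289 for Urod, from -0.2834 to 0.1302 for Ppox and from -0.0841 to 0.1388 for Flvcr1. For LSK cells minus HSCs, Urod ran from -0.3693 to 0.0257 without RBCs. With RBCs, Uros ran from -0.1073 to 0.1255, Urod from -0.0364 to 0.0299 and Fech from -0.243 to 0.1617. On average, Alas2 ran from -0.322 to 0.0155, Urod from -0.1863 to 0.0112 and Fech from -0.0257 to 0.1767.

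Of 1485 alternative log2 values in all, 1365 kept their direction and side of the threshold, 84 kept the direction but lost the call, 5 gained one and 31 changed sign. The 1365 include values that had not passed and stayed so, so this total does not measure how stable the calls were. Absolute depth is unknown.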
